A study of Homo sapiens with 4 samples.

Results

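The short arm of human chromosome 6 outside the major histocompatibility region was followed in 170 expressed protein-coding genes. They were chosen by position and by mean level from 67062 rows of a count table. The gene starts below 59 Mb on chromosome 6 in GENCODE 29 (GRCh38), it does not start between 25 and 34 Mb, and its mean over the 4 libraries is at least 1 CPM, a unit in which the counts of each library are scaled to one common total. Of 333 protein-coding genes of that stretch, 16 were left out by name, 147 lay under 1 CPM and 170 remained. The members were thus selected on their mean level, and the region itself was picked with the higher level of chromosome 6 in PIG-LONA cells already known. The members nearest to the limit were C6orf226 and GSTA4 at 1.17 and 1.19 CPM, and the nearest genes below it were PTCHD4 and GMPR at 0.805 and 0.993 CPM. Each member is a separate gene, but all are measured in the same 4 libraries and cannot stand in for replicates.

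The cells were OCI-AML3, an established line of human acute myeloid leukaemia that carries the cytoplasmic NPM1 mutation, so every group shares that mutation. Cells were transduced with the retroviral vector pMSCV-PIG, whose PGK promoter drives puromycin resistance and GFP, and were sorted for GFP. In the PIG-LONA group the vector also expressed the long noncoding RNA LONA from an RNA polymerase II promoter, and in the PIG-EMPTY group it had no insert. There were 2 independent transductions per vector and hence 2 libraries per group, from 1 cell line, so the spread between libraries does not cover differences between patients or lines. Polyadenylated RNA was sequenced and deposited as raw counts per gene, with 29819572 to 38358442 counts per library. The DNA of these cells and the level of LONA itself were not analysed here. The myeloid genes CD33, SPI1 and CEBPA were detected at 97.6 to 445 CPM and 6 myeloid genes summed to 866 and 835 CPM in the PIG-EMPTY libraries against 806 and 770 CPM with PIG-LONA. Among these, ANPEP (42.0 and 40.2 against 27.5 and 27.7 CPM) and LYZ (52.8 and 34.3 against 25.8 and 27.2 CPM) were lower in both PIG-LONA libraries. SPI1 was lower in both as well (223 and 229 against 208 and 202 CPM). CD33 was at 100 and 105 against 97.6 and 100 CPM, and CEBPA at 445 and 424 against 445 and 410 CPM. MPO, another defining myeloid gene, was at 2.78 and 2.6 against 2.09 and 2.79 CPM, so its groups overlapped. Markers of B and T lymphocytes summed to at most 0.208 CPM, of erythroid cells to 0.0331, of epithelial cells to 0.101 and of fibroblasts to 0.756 CPM.

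The short arm of chromosome 6 is best known for the histocompatibility genes, which the members exclude. On both sides of that region lie genes of very different roles. They include the chromatin gene DEK, a fusion partner in a subtype of acute myeloid leukaemia, the Polycomb cofactor gene JARID2, the cell cycle factor gene E2F3, the stress kinase gene MAPK14, the splicing factor gene SRSF3 and the nucleoside transporter gene SLC29A1, whose product carries cytarabine into leukaemia cells. A cluster of TREM receptor genes of myeloid cells also lies there. Neighbouring genes on such a scale share their chromosome and not a pathway.

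Stretches before the RefSeq start of the 3 rising members with the smallest p and of both members that fell are shown because these members had the smallest p among the rises and the only called falls. They come from RefSeq promoter sequences on GRCh38.p14, in which 149 of the 170 members had an entry, and bases that GENCODE 29 places in an exon were left out. The stretches are chr6:34392675-34392919 for NUDT3 (minus strand), chr6:44219365-44219504 for SLC29A1 (plus strand, the first of 2 listed starts), chr6:41072724-41072944 for NFYA (plus strand), chr6:6588470-6588668 for LY86 (plus strand) and chr6:7910815-7911038 for TXNDC5 (minus strand, the first of 2 listed starts). The genes themselves span chr6:34279679-34392674, chr6:44219505-44234151, chr6:41072945-41099976, chr6:6588108-6654983 and chr6:7881517-7910814 in that order (GRCh38, GENCODE 29). The stretch of LY86 thus lies inside the gene span of GENCODE 29, which begins further upstream than the RefSeq start, and the other stretches lie outside their gene spans. Capitals mark matches to 5 motifs on either strand, the GC box GGGCGG, the CCAAT box CCAAT, the TATA box TATAAA, the E-box CACGTG and the ETS core CCGGAAG.
NUDT3: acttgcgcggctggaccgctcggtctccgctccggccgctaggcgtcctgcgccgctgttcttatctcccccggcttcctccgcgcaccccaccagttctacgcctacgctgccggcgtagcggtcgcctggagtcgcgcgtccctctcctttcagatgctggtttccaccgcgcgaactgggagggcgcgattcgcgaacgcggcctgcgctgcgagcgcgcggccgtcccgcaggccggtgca
SLC29A1: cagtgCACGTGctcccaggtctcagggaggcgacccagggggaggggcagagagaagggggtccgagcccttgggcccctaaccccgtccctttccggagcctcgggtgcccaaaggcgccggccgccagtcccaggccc
NFYA: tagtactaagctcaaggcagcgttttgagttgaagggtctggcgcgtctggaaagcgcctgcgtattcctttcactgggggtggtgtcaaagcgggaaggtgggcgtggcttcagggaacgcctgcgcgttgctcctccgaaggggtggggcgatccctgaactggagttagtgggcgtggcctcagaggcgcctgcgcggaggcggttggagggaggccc
LY86: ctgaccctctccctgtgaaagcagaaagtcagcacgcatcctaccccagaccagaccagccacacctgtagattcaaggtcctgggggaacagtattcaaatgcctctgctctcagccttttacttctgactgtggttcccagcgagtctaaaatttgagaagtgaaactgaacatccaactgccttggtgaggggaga
TXNDC5: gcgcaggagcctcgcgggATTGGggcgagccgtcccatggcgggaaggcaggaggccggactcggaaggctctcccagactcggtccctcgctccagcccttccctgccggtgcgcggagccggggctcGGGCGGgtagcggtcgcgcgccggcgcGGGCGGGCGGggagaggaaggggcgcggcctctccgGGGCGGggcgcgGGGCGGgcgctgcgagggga

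The shown stretch of TXNDC5 held 5 GC boxes, which partly overlap, and 1 CCAAT box, that of SLC29A1 held 1 E-box, and the other three held no match to these letters. GC content was 71.4% in the stretch of NUDT3, 72.9% in SLC29A1, 63.3% in NFYA, 79.9% in TXNDC5 and 50.8% in LY86, which had 2 CpG dinucleotides against 39 in NUDT3. Over the 250 bases upstream of the start, the 149 members with an entry had a median GC content of 64.8% and 35116 promoters of all gene types had 58.0%. A GC box was found in 71.8% of these members and in 42.6% of all promoters. The other shares were 30.9% and 32.0% for the CCAAT box, 6.71% and 10.7% for the TATA box, 11.4% and 6.34% for the E-box and 12.1% and 8.52% for the ETS core. Of the members called higher and of the remaining members, 45 of 60 and 62 of 89 had a GC box, 23 of 60 and 23 of 89 a CCAAT box, 3 of 60 and 7 of 89 a TATA box, 9 of 60 and 8 of 89 an E-box, and 6 of 60 and 12 of 89 an ETS core. Their median GC contents were 65.2% and 63.6%. These are descriptions of letters in a fixed window and were not tested. The 35116 promoters were not limited to expressed or protein-coding genes, so their shares are no matched background for the members.

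Most short-arm genes were slightly higher in PIG-LONA cells. The members took 0.945% and 0.915% of all counts in the PIG-EMPTY libraries (replicates 1 and 2, the order used throughout) and 1.04% and 1.07% in the PIG-LONA libraries. The groups did not overlap in that share. In bulk RNA, fewer cells with a transcript and less of it per cell cannot be told apart. The median log2 fold change of the 170 members was 0.17, a 1.13-fold higher level, against 0.00 for all 15918 tested genes. Of the members, 153 had a fold change above zero. By edgeR's quasi-likelihood test, with p-values adjusted after Benjamini and Hochberg across the 15918 genes, 68 members rose, 2 fell and 100 did not pass an adjusted p of 0.05. That is 40.0% of members called higher and 1.18% called lower, where 2.93% of all tested genes were called higher and 3.51% lower. Both PIG-LONA libraries lay above both PIG-EMPTY libraries in 127 members (74.7%), against 23.7% of all tested genes. They lay below in 10 members (5.88%), against 24.4% of all tested genes. Since the region was chosen with the shift of chromosome 6 known, these counts describe the shift and are no separate evidence for it. In the called members the rise ran from 0.15 to 0.69 on the log2 scale (1.11-fold to 1.61-fold), with a median of 0.24.

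**Figure D1:**
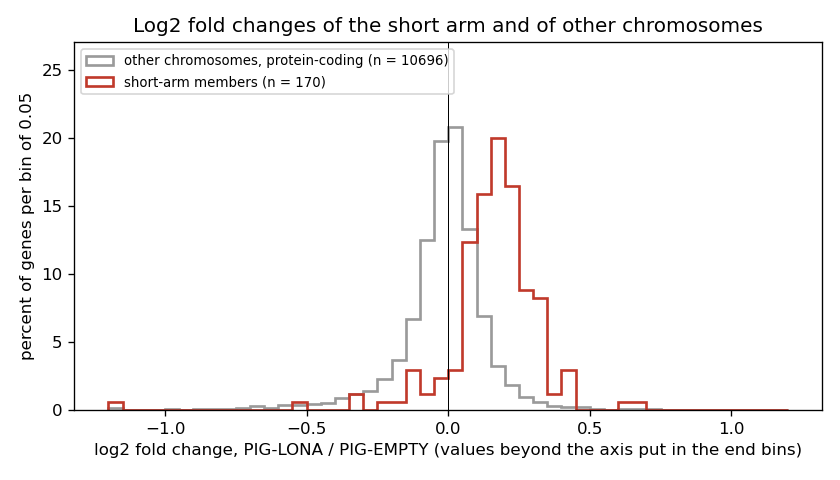
Log2 fold change of PIG-LONA against PIG-EMPTY (horizontal axis) and percent of genes per bin (vertical axis) for the 170 short-arm members (red) and 10696 protein-coding genes of other chromosomes at 1 CPM or more (grey). The red outline is moved to the right, with a median of 0.17 against 0.00, and has a similar width apart from single genes at the far left and right.

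The count of rising members depended on the libraries used. It was 22 when PIG-EMPTY replicate 2 was left out and 52 when replicate 1 was. Leaving out PIG-LONA replicates 1 and 2 gave 95 and 73. DESeq2 called 39, and edgeR called 22 when genes with low counts were not filtered out. The median fold change moved less, from 0.15 to 0.21 on the log2 scale over the libraries left out. The members' median deviation from the mean of the libraries was -0.06 and -0.12 on the log2 scale for PIG-EMPTY, while the PIG-LONA libraries stood at 0.08 and 0.09. The PIG-EMPTY libraries thus differed from each other on the short arm, by a median of -0.05 for replicate 2 against replicate 1, with 45 of 170 members higher in replicate 2. For protein-coding genes of other chromosomes that median was 0.00. On the rest of chromosome 6 it was -0.04 for the long arm and -0.06 between 25 and 34 Mb, so the difference was not particular to the members. On the members the PIG-LONA libraries differed by 0.03. Each PIG-LONA library lay above each PIG-EMPTY library, with medians of 0.14 and 0.16 against PIG-EMPTY replicate 1 and 0.19 and 0.22 against PIG-EMPTY replicate 2, in comparisons that share libraries. All of these ratios were taken on log2(CPM + 0.5).

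**Figure D2:**
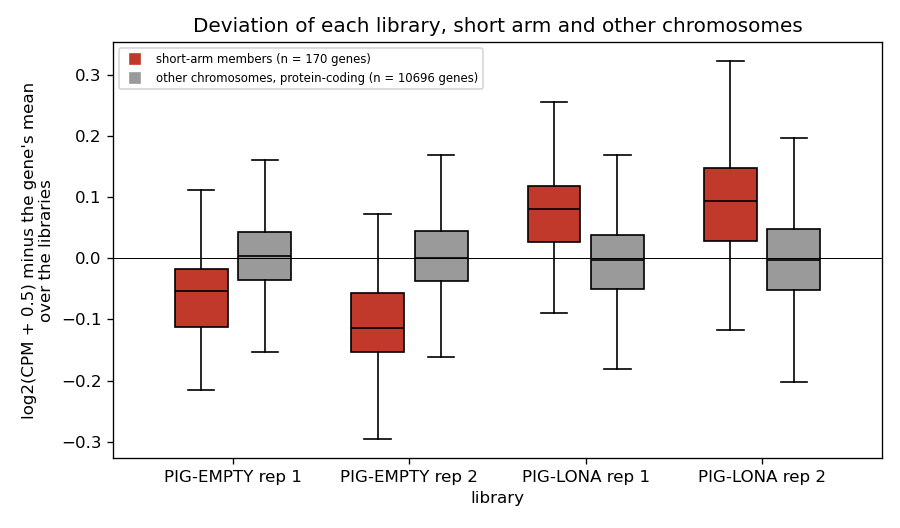
Deviation of each library from the gene's own mean over the 4 libraries, in log2(CPM + 0.5), for the short-arm members (red) and protein-coding genes of other chromosomes (grey). Boxes span the quartiles with a line at the median and whiskers reach the last value within 1.5 box lengths. The red medians are below zero in both PIG-EMPTY libraries and above zero in both PIG-LONA libraries, and the grey medians stay near zero in all 4.

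The rest of chromosome 6 was shifted by a similar amount. The 132 protein-coding genes that start between 25 and 34 Mb had a median log2 fold change of 0.16 with 40 called higher (30.3%) and 5 lower (3.79%). The 247 genes of the long arm had 0.18 with 102 higher (41.3%) and 4 lower (1.62%). The difference between these parts and the members was not tested. Among all tested genes, 2.93% were called higher and 3.51% lower. When PIG-EMPTY replicate 2 was left out the numbers called higher were 7 between 25 and 34 Mb and 35 on the long arm, and by DESeq2 they were 26 and 53. Among 23 chromosomes, chromosome 6 had the highest median (0.17) and chromosome 21 the next (0.02). The 16 genes left out by name had a median of 0.11 (0.16 on leaving out PIG-LONA replicate 2), with 8 higher (5 when PIG-EMPTY replicate 2 was left out) and 2 lower. Those that fell were the cell cycle inhibitor gene CDKN1A (-0.47 ± 0.05, SE) and SERPINB9 (-0.21 ± 0.05), and VEGFA (0.45 ± 0.05) rose most. Genes of other types in the same stretch had a median of 0.17 over 49 tested genes, and edgeR and DESeq2 each called 0 of them. At an unadjusted edgeR p under 0.05, 4 of these were higher. Of the 147 protein-coding genes under 1 CPM, 20 were tested, with a median of 0.02 and 1 lower.

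Along the arm the shift was spread over its whole length. The 64 members below 25 Mb had a median log2 fold change of 0.16 with 19 higher (29.7%) and 2 lower (3.12%). The 106 members above 34 Mb had 0.18 with 49 higher (46.2%). When PIG-EMPTY replicate 2 was left out the higher counts were 6 and 16, for PIG-LONA replicate 1 they were 29 and 66, by DESeq2 14 and 25, and in the unfiltered fit 8 and 14. In stretches of 5 Mb, each with 6 to 48 members, every median was positive, from 0.12 between 45 and 50 Mb to 0.22 between 34 and 35 Mb. The 8 members of that last stretch, which holds the chromatin gene HMGA1, NUDT3 and the splicing gene SNRPC, all had both PIG-LONA libraries above both PIG-EMPTY libraries, and 7 of them were called. Over all members, 74.7% had their libraries placed in this way and 40.0% were called higher, against 23.7% and 2.93% of all tested genes. The longest unbroken run of members with a fold change above zero held 36 genes, from MRS2 at 24.4 Mb to CCDC167 at 37.5 Mb, with 25 called higher. That run is counted over members alone and passes over the 25 to 34 Mb window, where 111 of 132 genes were above zero and 5 were called lower. It also passes over genes left out by name, among them CDKN1A, which fell (-0.47 ± 0.05). Both members that fell lie between 5 and 10 Mb, where 2 of 12 members rose. The plot in gene order shows the called members on both sides of the left-out window.

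**Figure D3:**
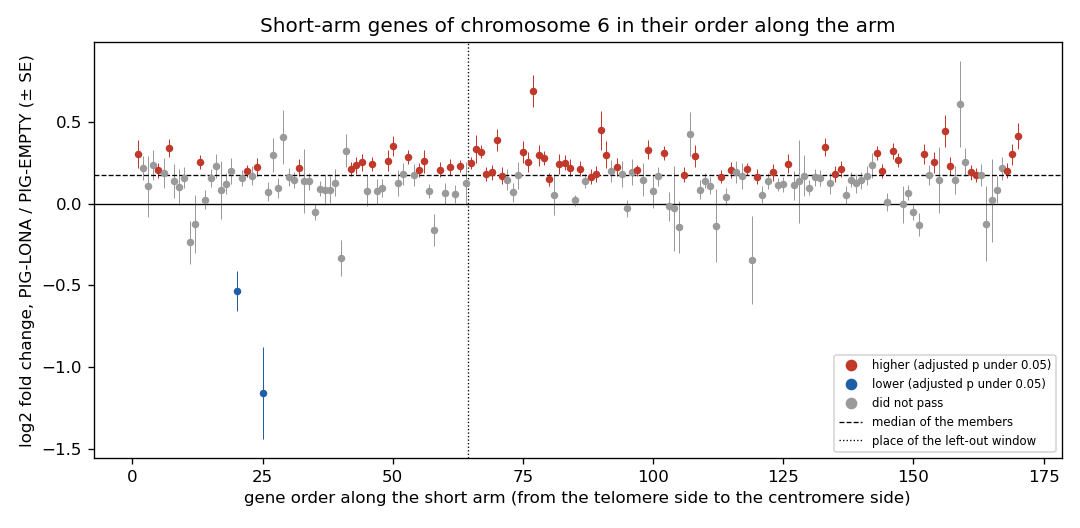
Log2 fold change with its SE (vertical axis) for the 170 members in their order along the arm (horizontal axis), in red where higher, blue where lower and grey where the test was not passed. The dashed line is the median of 0.17 and the dotted line marks the left-out window. Most points scatter around the dashed line on both sides of the window, and the 2 blue points, LY86 and TXNDC5, lie far below it.

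More members passed the test at higher levels. Members were split into 3 equal groups by mean level. In the group of 1.17 to 20.0 CPM, 8 of 57 rose and 2 fell, with a median standard error of 0.10. In the group of 22.4 to 53.0 CPM, 21 of 56 rose, with a standard error of 0.06. In the group of 53.3 to 551 CPM, 39 of 57 rose, with a standard error of 0.04. The median log2 fold changes were 0.14, 0.17 and 0.19 in that order. With PIG-EMPTY replicate 2 left out the counts were 4, 5 and 13, with PIG-EMPTY replicate 1 left out 5, 16 and 31, by DESeq2 2, 9 and 28 and in the unfiltered fit 2, 3 and 17. With PIG-LONA replicate 1 left out the middle group had 36. In the group of the highest levels the fold changes spread by an SD of 0.08 over members, and by 0.09 over 4032 protein-coding genes of other chromosomes in the same range of levels. Of these 57 members, 56 (98.2%) were above zero, and 53 (93.0%) had both PIG-LONA libraries above both PIG-EMPTY libraries. For the 4032 genes of other chromosomes these shares were 51.4% and 25.7%. In the low, middle and high groups 14.0%, 37.5% and 68.4% of members were called higher. Protein-coding genes of other chromosomes in matching ranges of levels had 1.03%, 2.25% and 2.73%.

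**Figure D4:**
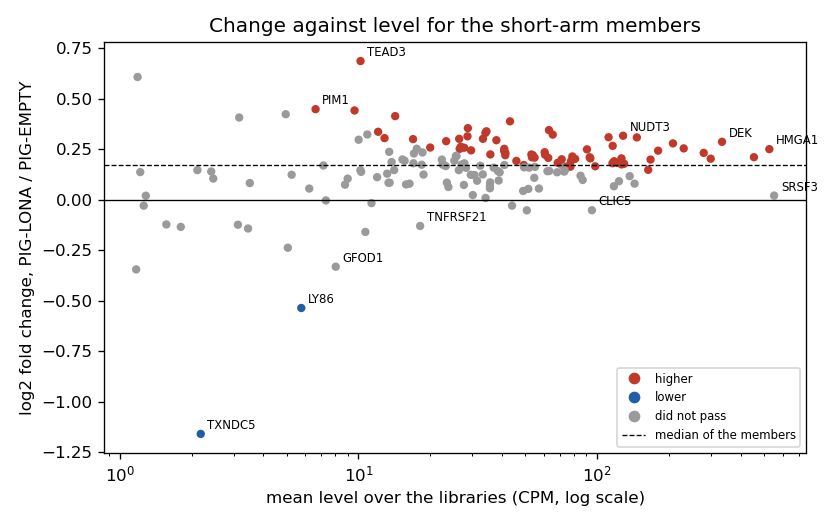
Mean level of each member in CPM (horizontal, log scale) and log2 fold change (vertical), in red where higher, blue where lower and grey where the test was not passed. The scatter narrows around the dashed median of 0.17 at high levels, where HMGA1 and DEK lie above it and SRSF3 near zero.

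Grouped by function, the members' counts are set beside the 40.0% of all members and the 2.93% of all tested genes called higher. No difference between a group and the other members was tested. Chromatin and transcription genes rose in 13 of 29 measured members (44.8%, near the share of all members) and the other 16 did not pass, with a median log2 fold change of 0.18 beside 0.00 over all tested genes. DEK, which encodes a chromatin protein (chr6:18223868-18264823, minus strand), was at 314.0 and 287.4 CPM in the PIG-EMPTY libraries and at 357.3 and 376.3 CPM in the PIG-LONA libraries. The groups did not overlap, and the log2 fold change was 0.29 ± 0.04 (SE; edgeR adjusted p = 0.000166). HMGA1, an architectural chromatin protein gene, was at 488.8 and 473.0 CPM against 584.9 and 560.0 CPM (0.25 ± 0.04). JARID2, a cofactor of Polycomb repressive complex, was at 164.2 and 165.9 CPM against 187.4 and 203.2 CPM (0.24 ± 0.04). NFYA, the DNA-binding regulatory subunit of the CCAAT-box factor NF-Y, was at 103.4 and 96.21 CPM against 122.2 and 125.1 CPM (0.31 ± 0.04, edgeR adjusted p = 0.000129), and overlaps OARD1 on the other strand. In each of these genes both PIG-LONA libraries were the high ones. TEAD3, a transcription factor of the Hippo pathway at chr6:35473597-35497076 (minus strand), had the largest called rise of all members. It was at 8.127 and 7.574 CPM in PIG-EMPTY and at 11.96 and 13.19 CPM in PIG-LONA, a log2 fold change of 0.69 ± 0.10 (edgeR adjusted p = 0.000142). E2F3, a driver of entry into S phase, was at 117.0 and 118.1 CPM against 130.7 and 140.1 CPM (0.21 ± 0.04), but its adjusted p was 0.0586 on leaving out PIG-EMPTY replicate 1. ZNF318 also rose (0.35 ± 0.06). SOX4 (0.08 ± 0.04), a factor of progenitor cells, SRF (0.10 ± 0.04), which drives serum response genes, and the Runt family gene RUNX2 (0.07 ± 0.05) did not pass. RUNX2 passed on leaving out PIG-LONA replicate 1 (adjusted p = 0.00699), and it overlaps SUPT3H on the other strand. In place of 13 rising members, leaving out PIG-EMPTY replicate 2 gave 7 and the unfiltered fit 6.

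RNA splicing and processing genes rose in 6 of 9 members (66.7%, beside 40.0% of all members), with a median log2 fold change of 0.23. All 9 had both PIG-LONA libraries above both PIG-EMPTY libraries, as had 74.7% of all members and 23.7% of all tested genes. SRPK1, a kinase that phosphorylates SR splicing factors, was at 193.9 and 181.8 CPM in PIG-EMPTY and 223.0 and 232.9 CPM in PIG-LONA (0.28 ± 0.04, edgeR adjusted p = 0.000163). CDC5L, a core component of the PRP19 complex, was at 106.7 and 104.4 CPM against 124.6 and 129.3 CPM (0.27 ± 0.04). PRPF4B, a spliceosomal kinase gene, was at 210.2 and 210.6 CPM against 237.1 and 264.7 CPM (0.25 ± 0.04). SRSF3, an SR splicing factor gene, was at 548.6 and 546.3 CPM in the PIG-EMPTY libraries, and the PIG-LONA libraries had 560.1 and 551.2 CPM. The groups did not overlap but lay close together, and it did not pass (0.02 ± 0.03, edgeR adjusted p = 0.809). In place of 6 rising members, leaving out PIG-EMPTY replicate 2 gave 3 and the unfiltered fit 3.

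Ribosome assembly and translation genes rose in 5 of 15 members (33.3%, beside 40.0% of all members), and all 15 fold changes were above zero (median 0.17), as were 90.0% over all members. AARS2, the mitochondrial alanyl-tRNA synthetase gene, was at 59.84 and 56.10 CPM against 70.47 and 74.35 CPM (log2 fold change 0.32 ± 0.05, edgeR adjusted p = 0.000253). RPL7L1 (0.21 ± 0.04), a ribosomal protein like gene, and the nucleolar protein gene NOL7 (0.21 ± 0.04) rose as well. When PIG-EMPTY replicate 2 was dropped, their adjusted p was 0.146 and 0.0924. NOL7 overlaps RANBP9 on the other strand. In place of 5 rising members, leaving out PIG-EMPTY replicate 2 gave 1 and leaving out PIG-LONA replicates 1 and 2 gave 9 and 8, while DESeq2 gave 3 and the unfiltered fit 3.

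Kinase and signalling genes rose in 7 of 18 members (38.9%, near the 40.0% of all members) and 11 did not pass (median log2 fold change 0.17, and 0.26 on leaving out PIG-EMPTY replicate 1). RIPK1, a kinase of cell death and NF-kB signalling, was at 30.02 and 30.76 CPM in PIG-EMPTY and 37.66 and 39.19 CPM in PIG-LONA (0.34 ± 0.06, edgeR adjusted p = 0.000602). PIM1, a serine/threonine kinase gene induced by cytokines, was at 5.910 and 5.265 CPM against 8.052 and 7.256 CPM (0.45 ± 0.12). MAPK14, which encodes the alpha form of the p38 stress kinase, was at 159.4 and 151.3 CPM against 173.6 and 170.8 CPM (0.15 ± 0.04). These groups did not overlap either. The adaptor genes CD2AP (0.30 ± 0.06) and RANBP9 (0.24 ± 0.05) also rose. With PIG-EMPTY replicate 2 left out, the adjusted p was 0.271 for PIM1, 0.283 for RANBP9 and 0.527 for MAPK14, and on leaving out PIG-EMPTY replicate 1 it was 0.0759 for MAPK14. NFKBIE, an inhibitor of NF-kB, stayed at 33.83 to 34.62 CPM in all 4 libraries (0.01 ± 0.06). GFOD1 (-0.33 ± 0.11) is an oxidoreductase domain gene that was placed in this list and not with the redox enzymes. It did not pass with all 4 libraries, and its fold change was -0.46 on leaving out PIG-LONA replicate 2. In place of 7 rising members, leaving out PIG-EMPTY replicate 2 gave 2, DESeq2 3 and the unfiltered fit 1.

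Ubiquitin, proteasome and chaperone genes rose in 8 of 16 members (beside 40.0% of all members) and fell in 1 (median log2 fold change 0.19). FKBP5, a co-chaperone of HSP90 that glucocorticoids induce, was at 36.23 and 31.87 CPM against 40.70 and 42.65 CPM (0.30 ± 0.06), and KCTD20 (0.25 ± 0.05) and the HSP70 co-chaperone gene BAG2 (0.30 ± 0.06) rose too. BAG2 overlaps RAB23 on the other strand. When PIG-EMPTY replicate 2 was dropped, the adjusted p was 0.211 for FKBP5 and 0.135 for BAG2. TXNDC5, a protein disulfide isomerase family gene of the endoplasmic reticulum, was the member that fell. It had 123 and 64 raw counts under PIG-EMPTY (4.131 and 1.970 CPM), while PIG-LONA had 34 and 58 (1.136 and 1.508 CPM). PIG-EMPTY replicate 1 stood apart from the other three libraries, and the log2 fold change of -1.16 ± 0.28 (edgeR adjusted p = 0.0142) became -0.55 with an adjusted p of 0.428 without that library. A read-through gene model of BLOC1S5 and TXNDC5 overlaps it, so its count is uncertain. In place of 8 rising members, leaving out PIG-EMPTY replicate 2 gave 1 and leaving out replicate 1 gave 5, while DESeq2 gave 5 and the unfiltered fit 1.

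Metabolic and redox enzyme genes had 20 of 20 fold changes above zero (median 0.17). Over all members that share was 90.0%, and over all tested genes 50.4%. The oxidoreductase domain gene GFOD1 (-0.33 ± 0.11) was listed with the kinase and signalling genes, so it is not among the 20. In the test 3 of the 20 rose, beside 40.0% of all members. NUDT3, a diphosphoinositol polyphosphate phosphatase gene, had the smallest p of all members. It was at 116.0 and 112.9 CPM in PIG-EMPTY and 144.6 and 140.7 CPM in PIG-LONA (log2 fold change 0.32 ± 0.04, edgeR adjusted p = 4.2e-05). A read-through model with RPS10 overlaps NUDT3. GLO1, the glyoxalase gene that clears methylglyoxal, was at 281.3 and 274.9 CPM against 315.7 and 324.7 CPM (0.20 ± 0.04), and the fatty acid elongase gene ELOVL5 was at 122.6 and 115.3 CPM against 129.3 and 139.1 CPM (0.18 ± 0.04). Neither passed when PIG-EMPTY replicate 2 was left out (adjusted p = 0.0779 for GLO1 and 0.419 for ELOVL5). In place of 3 rising members, leaving out PIG-EMPTY replicate 2 gave 1, and leaving out PIG-LONA replicates 1 and 2 gave 7 and 5.

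Transporter, channel and membrane traffic genes rose in 11 of 21 members (52.4%, beside 40.0% of all members), with a median log2 fold change of 0.20 (0.12 on leaving out PIG-EMPTY replicate 2). SLC29A1, the equilibrative nucleoside transporter gene, was at 135.4 and 126.8 CPM in PIG-EMPTY and 165.0 and 160.0 CPM in PIG-LONA (0.31 ± 0.04, edgeR adjusted p = 8.2e-05). KCNK5, a potassium channel gene, was at 31.20 and 29.19 CPM against 37.02 and 38.80 CPM (0.33 ± 0.06), and the small GTPase gene RAB23 was at 12.09 and 12.41 CPM against 15.57 and 16.98 CPM (0.41 ± 0.08). The PIG-LONA libraries were the high ones in each. SSR1 (0.20 ± 0.04), a subunit gene of the translocon-associated complex, rose with an adjusted p of 0.109 on leaving out PIG-EMPTY replicate 2. In place of 11 rising members, leaving out PIG-EMPTY replicate 2 gave 3, DESeq2 7 and the unfiltered fit 4.

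DNA repair and mitosis genes rose in 4 of 6 members (66.7%, from few genes; median log2 fold change 0.21), among them the topoisomerase repair gene TDP2 (0.22 ± 0.05), the replication-linked ATPase gene WRNIP1 (0.21 ± 0.05), which the ubiquitin list also holds, and FANCE (0.26 ± 0.06), of the Fanconi anaemia core complex. All 6 had both PIG-LONA libraries above both PIG-EMPTY libraries, as had 74.7% of all members and 23.7% of all tested genes. With PIG-EMPTY replicate 2 left out, the adjusted p was 0.260 for TDP2, 0.415 for WRNIP1 and 0.0936 for FANCE, and on leaving out PIG-EMPTY replicate 1 it was 0.0759 for FANCE. The count of 4 was 2 on leaving out PIG-EMPTY replicate 1 and 2 with DESeq2. By edgeR it was 0 on leaving out PIG-EMPTY replicate 2, where 4 of the 6 had an unadjusted p under 0.05, and 0 without the filter, where 6 had.

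Of 14 listed myeloid and immune surface genes, 9 were under 1 CPM or absent and 5 were members, of which 1 fell and 4 did not pass. Lower calls made up 1.18% of all members and 3.51% of all tested genes. In 3 of the 5, both PIG-LONA libraries lay below both PIG-EMPTY libraries, against 5.88% of all members and 24.4% of all tested genes. The median log2 fold change of the 5 was -0.03, and it ran from -0.15 on leaving out PIG-LONA replicate 1 to -0.0042 on leaving out PIG-LONA replicate 2. LY86, which encodes a secreted partner of a Toll-like receptor family protein on myeloid and B cells, was at 6.750 and 6.866 CPM in PIG-EMPTY and 4.945 and 4.499 CPM in PIG-LONA. Both PIG-LONA libraries were low and the gene fell by 0.54 ± 0.12 on the log2 scale (edgeR adjusted p = 0.0101). That call was lost on leaving out PIG-EMPTY replicate 2 (adjusted p = 0.0592), with DESeq2 (0.106) and without the filter (0.0621). TREM1 (-0.14 ± 0.16), TREM2 (-0.02 ± 0.09), TREML2 (-0.03 ± 0.26) and CD83 (0.08 ± 0.09) did not pass. The myeloid markers ANPEP and LYZ, which lie outside the arm, were also lower in both PIG-LONA libraries, as was SPI1 (values above). MPO and CEBPA overlapped between the groups, and CD33 was at 100 and 105 against 97.6 and 100 CPM. The part of these markers in the result for LY86 was not tested. TREM1, a receptor that amplifies inflammation, was at 3.761 and 3.479 CPM against 3.308 and 3.251 CPM, and TREM2 stayed at 11.21 to 11.42 CPM. In the lowest-level members such as TREML2 a change of the size of the arm's median was not detectable at this depth.

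Of the 33 members in no list, 12 rose (36.4%). FAM8A1 was at 26.06 and 24.48 CPM against 31.41 and 33.08 CPM (log2 fold change 0.36 ± 0.06). BLTP3A (0.39 ± 0.07), a lipid transfer protein gene that overlaps TAF11 on the other strand, rose too, and its fold change was 0.25 on leaving out PIG-LONA replicate 2. In place of 12 rising members, leaving out PIG-EMPTY replicate 2 gave 4 and leaving out replicate 1 gave 7, while DESeq2 gave 5 and the unfiltered fit 2. Of the genes named here, LY86, E2F3, CD2AP, RANBP9, PIM1, MAPK14, FKBP5, BAG2, ELOVL5, TDP2, WRNIP1, FANCE, BLTP3A and TXNDC5 did not pass in the unfiltered fit, with adjusted p from 0.0541 for BLTP3A to 0.195 for TXNDC5. Beside LY86, DESeq2 did not call MAPK14, PIM1, ELOVL5 or FANCE, with adjusted p from 0.0649 for ELOVL5 to 0.184 for PIM1. In all, 17 of the 70 called members and 36 of all 170 members overlap another gene at 1 CPM or more. The strand setting of the counting is not given in the sources used here.

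**Figure D5:**
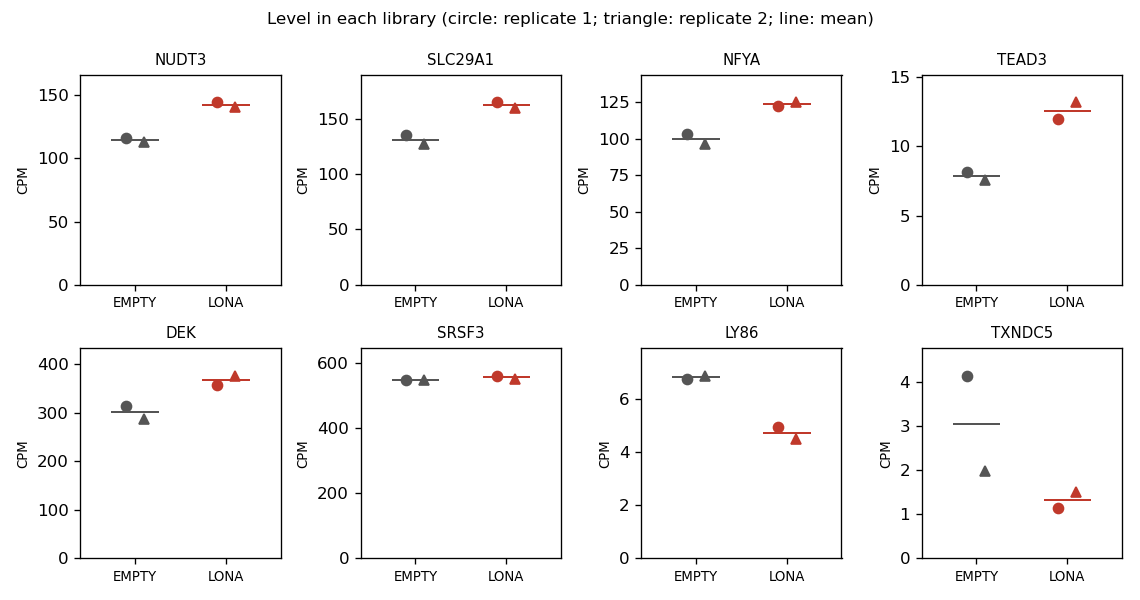
Level in CPM of 8 members (vertical axis, from zero) in the PIG-EMPTY (grey) and PIG-LONA (red) libraries, with replicate 1 as circles, replicate 2 as triangles and the group mean as a line. NUDT3, SLC29A1, NFYA, TEAD3 and DEK are higher in both PIG-LONA libraries, SRSF3 stays between 546.3 and 560.1 CPM, and LY86 and TXNDC5 are lower, the latter with 1 PIG-EMPTY library far above the rest.

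When the members' own median deviation in each library was taken out, few members stood apart from the rest, whose median is then near zero by construction. In this fit 4 members (2.35%) were above the common shift and 8 (4.71%) below it. Of all tested genes, 2.15% were called higher and 3.49% lower, shares that include the long arm, from which no shift was taken out. The members above were TEAD3 (0.51 ± 0.10 relative to the shift, edgeR adjusted p = 0.00208), NUDT3 (0.15 ± 0.04), NFYA (0.14 ± 0.04) and SLC29A1 (0.14 ± 0.04). The members below were LY86 (-0.71 ± 0.13, edgeR adjusted p = 0.00123), TXNDC5 (-1.33 ± 0.27), GFOD1 (-0.50 ± 0.11), and then the death receptor gene TNFRSF21 (-0.30 ± 0.07), the focal adhesion scaffold gene NEDD9 (-0.22 ± 0.05), the chloride intracellular channel family gene CLIC5 (-0.22 ± 0.05), ZFAND3 (-0.20 ± 0.05) and SRSF3 (-0.15 ± 0.03). Against PIG-EMPTY itself the last 5 of these had fold changes between -0.13 and 0.02 and did not pass. TNFRSF21 was at 18.97 and 18.93 CPM against 17.34 and 17.32 CPM, and the PIG-LONA libraries were low. TEAD3 and LY86 were called in all 11 alternative fits of this comparison, NUDT3 in 7, SLC29A1 in 6, NFYA in 5 and the other members below the shift in 8 or 9. The count above was 1 on leaving out either PIG-EMPTY library and 18 on leaving out PIG-LONA replicate 1, and the count below was 3 on leaving out PIG-EMPTY replicate 2 and 15 on leaving out PIG-LONA replicate 1. With DESeq2 the counts were 1 and 4, and in the unfiltered fit 1 and 1.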

How the data were processed

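The authors deposited unnormalized counts for each Ensembl gene in 4 libraries, 2 per vector. FastQC 0.11.4, HTSeq, STAR 2.5 and the build hg38 stand in the submitters' processing notes, which give neither the annotation release nor the strand setting. Of 67062 rows, 58548 matched GENCODE 29 (GRCh38, the assembly of hg38) and held 99.9% of the counts. For the group difference edgeR 4.0.16 was run under R 4.3.3 (TMM scaling, filterByExpr with a minimum count of 10 and a minimum total of 15, glmQLFit and glmQLFTest on the group, two-sided), on all 15918 genes that passed. Levels of the members in each library are CPM of TMM-scaled totals, not per length. The cell type markers, the limit of 1 CPM and the mean levels used for grouping rest on unscaled library totals. The standard error is the fold change divided by the square root of F. A second fit added the members' median deviation per library to the offsets of short-arm genes. All 170 members passed the filter. The biological coefficient of variation was 2.95%. The fits were tested on simulated counts. Alternatives were DESeq2 1.42.0, limma-voom (limma 3.58.1), other scalings, no filter, a replicate block, a level of 5 CPM and each library left out. The 48 named genes were those with the largest rises and falls, the smallest p, up to 3 per function list, those apart from the shift, and 15 fixed names (IRF4 was under 1 CPM). One of them is not reported here. The members, the 9 lists and this rule were chosen with earlier results of these data known.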

Additional observations from a re-analysis of the deposited data

How the results depend on the processing

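With each library left out in turn, the number of members higher in PIG-LONA ran from 22 to 95 (main value 68), the number lower from 1 to 3 (main value 2), the members' median log2 fold change from 0.15 to 0.21, the number above the shift of the arm from 1 to 18 and the number below it from 3 to 15. In these fits the lone library of a group is assumed to vary like the other group. With the DESeq2 Wald test 39 were higher and 1 lower, with 1 above the shift and 4 below. Without the low-count filter 22 were higher and 0 lower by edgeR (3 lower at an unadjusted p under 0.05), with 1 above the shift and 1 below. Library totals in place of TMM gave 2 above the shift, and members of at least 5 CPM gave 1 lower. The cause of these changes was not tested. The median stayed between 0.17 and 0.18 under the other scalings and tools, and the calls of 17 of the 68 rising members held in all 11 fits. The replicate number as a block gave 69 higher. Over all tested genes, the deviation of replicate 1 from its own group's mean correlated at 0.05 between the 2 groups. The labels name no shared batch, so the numbers were not taken as pairs. At 2 libraries per group, low-level members carry large errors.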
